A study of Mus musculus with 18 samples.

Results

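The receptor gene Trem2, its signalling adaptor Tyrobp and 8 further genes of the disease-associated microglia program (Apoe, Lpl, Cst7, Itgax, Spp1, Axl, Gpnmb) or of the TREM family (Trem1) were followed in TRAP-RNAseq of Cx3cr1-NuTRAP mouse brain. The 10 genes were chosen by symbol from the 36172 genes listed, and each symbol matched 1 gene. Every mouse was about 3 months old and carried Cx3cr1-cre/ERT2 together with NuTRAP, and every mouse had received tamoxifen, the PBS animals too, so that cells using the Cx3cr1 promoter carried an EGFP-tagged ribosomal protein. Between 3 and 4 weeks later they received by the intraperitoneal route either lipopolysaccharide (LPS, 5 mg/kg), a component of bacterial outer membranes, or the vehicle phosphate-buffered saline (PBS), and brain tissue was taken 24 h after it. Part of the homogenate was kept as input, which holds RNA of all brain cells, and the tagged ribosomes pulled down from the remainder gave the positive fraction. The Cx3cr1 promoter is active in microglia and also in border macrophages and some blood monocytes, and the wait after tamoxifen was meant by the study to leave short-lived circulating monocytes unlabelled.

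The 17 libraries used came from 9 animals and comprised 4 from the input of PBS animals (Input PBS), 4 from the input of LPS animals (Input LPS), 4 from the positive fraction of PBS animals (Positive PBS) and 5 from that of LPS animals (Positive LPS). The PBS animals were 2 females and 2 males, and the LPS animals 4 females and 1 male. Libraries held between 22968834 and 35123335 counts. An 18th library, Input LPS of animal 271, held only 1250 counts and was left out. Values are counts scaled by a size factor per library (normalised counts). The microglia markers Tmem119 and P2ry12 were higher in the positive fraction than in input, Tmem119 with a mean of 16140 ± 1365 (SD, n = 4) normalised counts in Positive PBS against 787 ± 61.3 (n = 4) in Input PBS. P2ry12 stood at 9742 ± 1453 and 571 ± 99.7 in the same groups. In LPS animals both were again enriched, by 4.10 ± 0.20 and 3.67 ± 0.24 on the log2 scale (SE, edgeR adjusted p = 7.95e-12 and 3.24e-10). The positive fraction still held RNA of other brain cells, with astrocyte markers summing to between 134298 and 183965 normalised counts there against 130723 to 153595 in input. Neuron markers summed to between 178020 and 262921 there and between 198651 and 228552 in input. In bulk fractions, fewer cells of a type and less RNA per cell cannot be told apart.

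TREM2 is a surface receptor of microglia that binds lipids and lipoproteins, apolipoprotein E among them. It has no signalling tail and depends on the adaptor DAP12, the product of Tyrobp, which recruits the kinase SYK when its tyrosines are phosphorylated. TREM1, which uses the same adaptor, is known from neutrophils and monocytes as an amplifier of inflammatory signals. In models of neurodegeneration microglia lower their homeostatic genes and raise a disease-associated set in a way that partly needs Trem2. The other 7 genes belong to that set.

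Trem2 fell and Trem1 rose after LPS, in both fractions, while the adaptor they share was not called in either. In the positive fraction 7 of the 10 genes changed, with Cst7, Spp1, Gpnmb and Trem1 higher and Trem2, Apoe and Lpl lower. A gene was called at an adjusted p under 0.05, from edgeR's quasi-likelihood test with Benjamini-Hochberg adjustment over 14803 genes, with a log2 fold change over 0.32 in either direction. By this rule 33.8% of all genes tested were called for the LPS effect in the positive fraction, 19% as higher and 14.9% as lower. In input 5 of the 10 genes were called, namely Trem2 lower and Cst7, Spp1, Gpnmb and Trem1 higher, against 12.4% of all genes, 7.16% as higher and 5.26% as lower. All 10 genes passed the filter on low counts, Trem1 only through the LPS libraries. The median log2 fold change of the 10 genes was 0.09 in the positive fraction and 0.21 in input, beside 0.01 and 0.00 over all genes tested.

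**Figure D1:**
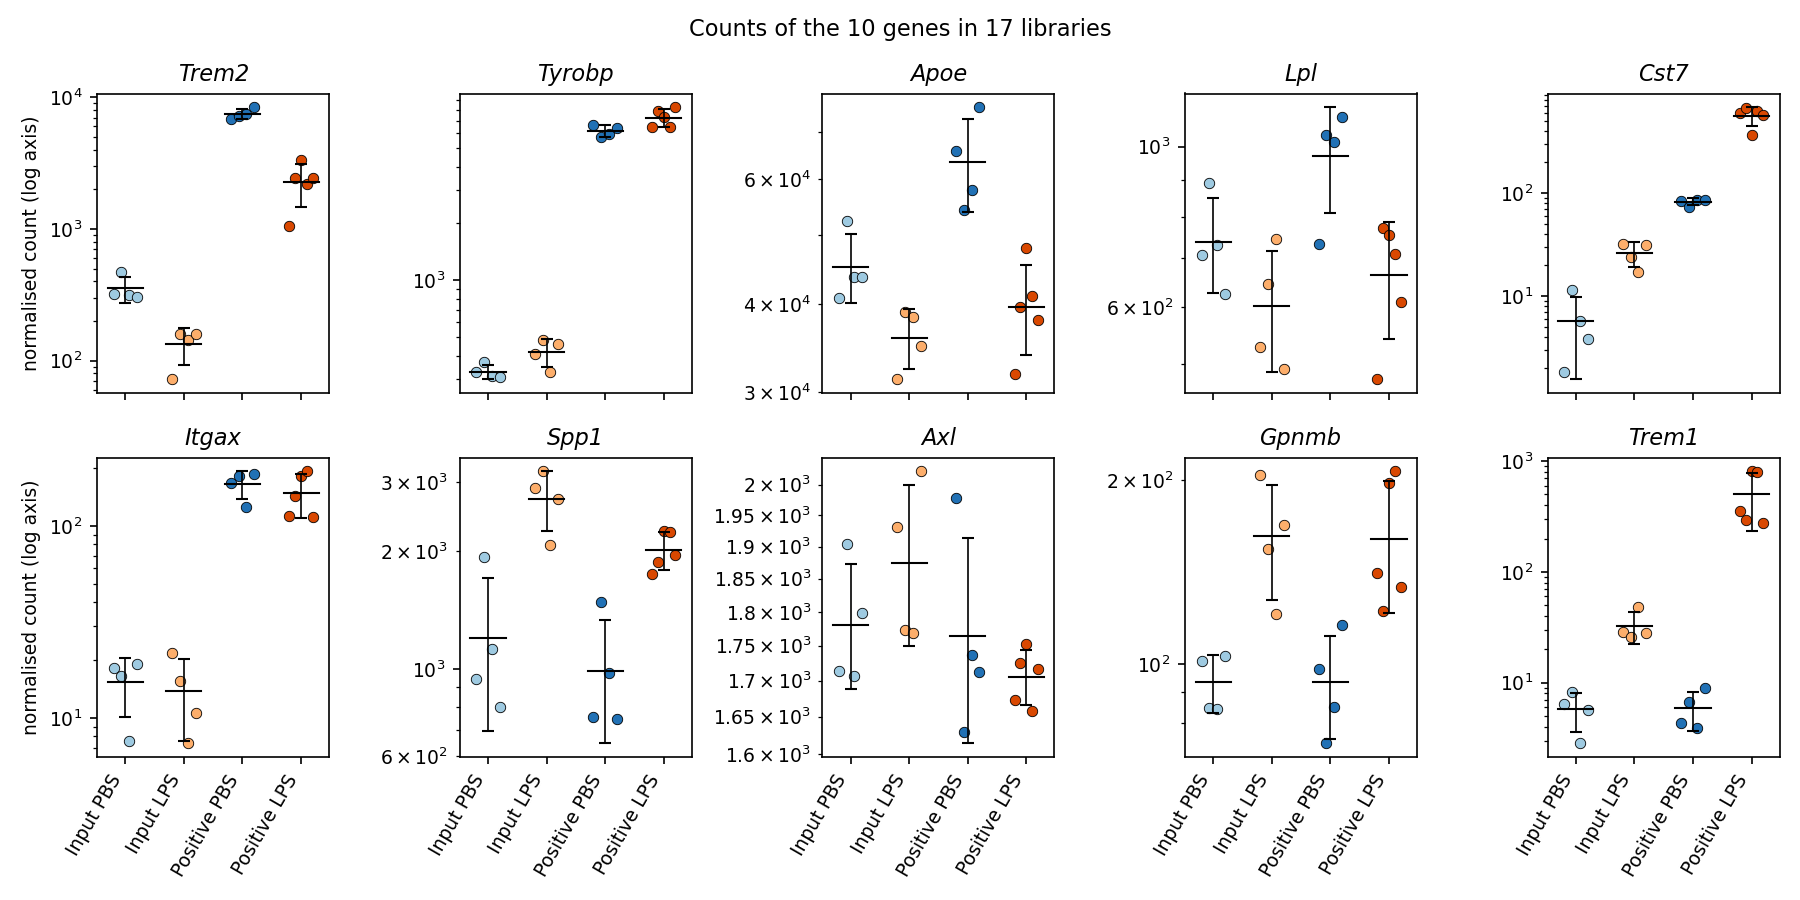
Normalised counts (y axis, log scale) of each of the 10 genes in the 17 libraries, by group on the x axis. Points are libraries, horizontal lines are group means and error bars are SD. Trem2 lies between 6889 and 8414 in Positive PBS and between 1044 and 3308 in Positive LPS, while Trem1 lies under 10 in every PBS library.

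Enrichment in the positive fraction split the 10 genes. Trem2, Tyrobp, Cst7 and Itgax were enriched in both treatments, Trem1 in LPS animals only by call, and Apoe slightly in PBS animals only by call. Lpl, Spp1, Axl and Gpnmb were called in neither. In PBS animals 5 of the 10 genes were called higher in the positive fraction than in input and none lower, where 21% of all genes were called higher and 39.8% in either direction. In LPS animals 5 of the 10 were again called higher and none lower, where 27.6% of all genes were called higher and 53.4% in either direction. The LPS effect itself differed between fractions for 1 of the 10 genes, Trem1, where 6.88% of all genes were called.

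**Figure D2:**
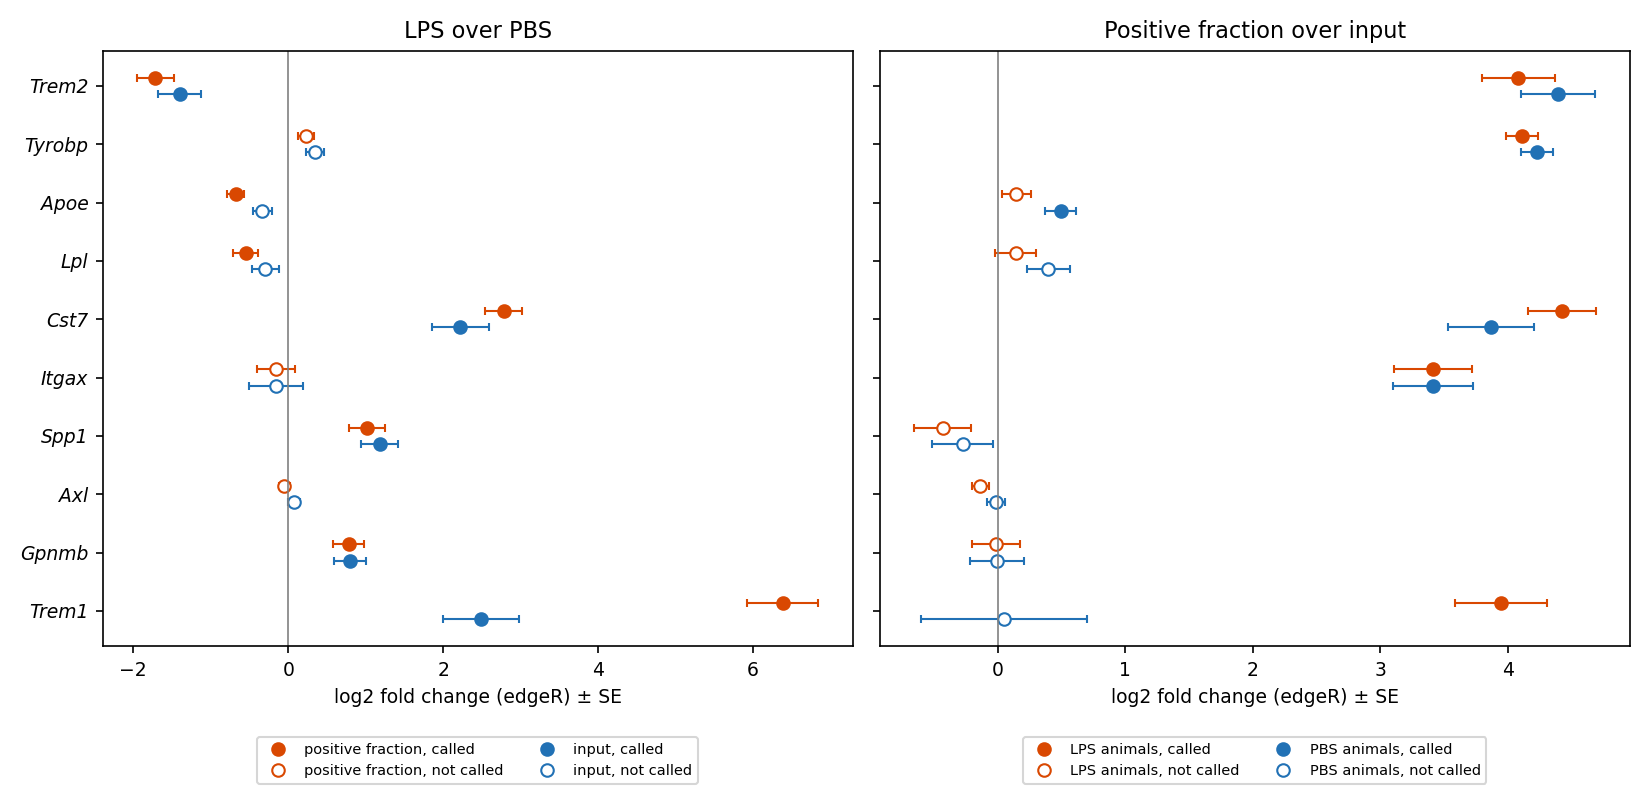
Log2 fold changes with SE (x axis) of the 10 genes (y axis), for LPS over PBS on the left and for positive fraction over input on the right. Filled points passed the call rule and open points did not. Trem1 stands at 6.38 in the positive fraction and Trem2 at -1.71, with Tyrobp, Itgax and Axl open in both fractions.

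Trem2 (Gene ID 83433) lies on chromosome 17 at 48346401 to 48352276 of mm10, plus strand. In the positive fraction of PBS animals it stood at 6889, 7170, 7445 and 8414 normalised counts (7479 ± 663, SD, n = 4). In the positive fraction of LPS animals it stood at 1044, 2190, 2415, 2429 and 3308 (2277 ± 811, n = 5). The groups did not overlap, and the lowest library was that of animal 266. The fitted change was -1.71 ± 0.24 on the log2 scale (SE, edgeR adjusted p = 1.81e-05), which leaves 0.305 times the PBS level, and ranks 88 from the lowest among the 14803 genes.

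In input the same gene was measured at a far lower level. Input PBS libraries held 307, 316, 323 and 475 normalised counts of Trem2, and Input LPS libraries 72.6, 144, 159 and 159. These groups did not overlap either, and animal 266 was again the lowest. The log2 change in input was -1.40 ± 0.28 (edgeR adjusted p = 0.0021), and the change in the positive fraction minus that in input was -0.31 ± 0.37 (edgeR adjusted p = 0.708). Trem2 was enriched over input 21.1-fold in PBS animals and 16.98-fold in LPS animals, with edgeR adjusted p of 5.76e-10 and 1.04e-09.

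Tyrobp (Gene ID 22177, chromosome 7, 30413788 to 30417579) codes for the adaptor itself and was not called after LPS. Positive PBS libraries held 5716, 5939, 6425 and 6663 normalised counts, and Positive LPS libraries 6435, 6440, 7349, 7849 and 8250. The groups overlapped, and the log2 change was 0.23 ± 0.10 (edgeR adjusted p = 0.0834). In input the values were 307, 312, 328 and 369 after PBS and 326, 409, 459 and 486 after LPS. That change, 0.35 ± 0.12, missed the threshold (edgeR adjusted p = 0.0528) and passed it with DESeq2, at 0.35 and an adjusted p of 0.0328, among other settings. The enrichment was 18.8-fold in PBS and 17.3-fold in LPS animals.

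Because both genes are read in the same library, their ratio does not depend on how libraries are scaled. In the positive fraction the Trem2 to Tyrobp ratio of counts lay between 1.03 and 1.31 in the 4 PBS animals and was 0.162, 0.294, 0.308, 0.340 and 0.450 in LPS animals. In input it was 0.983, 1.00, 1.01 and 1.28 in PBS animals and 0.178, 0.328, 0.348 and 0.444 in LPS animals. In both fractions animal 266 had the lowest ratio and animal 270 the highest among the LPS animals, and PBS and LPS animals did not overlap. On the log2 scale it fell by 2.03 in the positive fraction (exact two-sided permutation test, p = 0.0159, adjusted 0.0381 over 6 ratio tests) and by 1.79 in input (exact p = 0.0286, adjusted 0.0381). Both raw p-values are the smallest that these group sizes can give. Since Trem2 alone did not overlap between treatments in either fraction, the test adds no support to its fall.

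**Figure D3:**
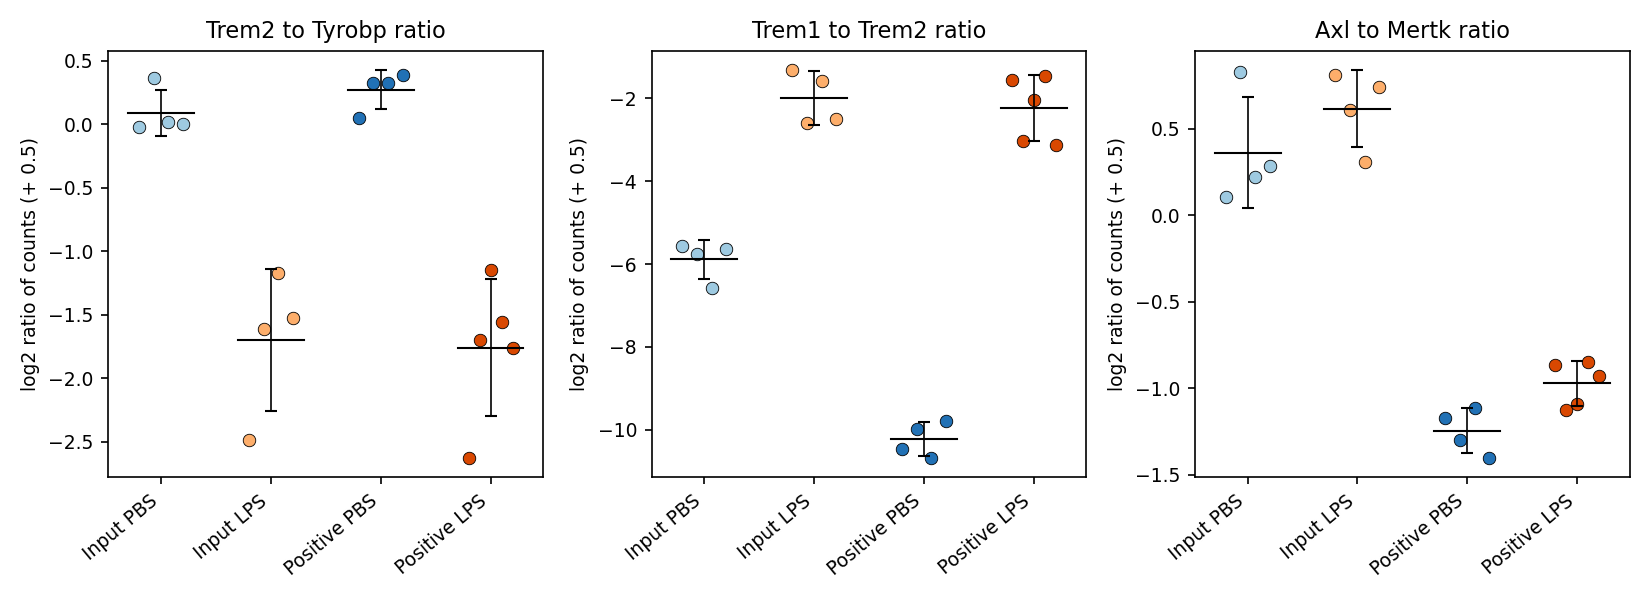
Log2 ratio of the counts of a pair of genes in the same library (y axis, 0.5 added to each count) by group, for Trem2 to Tyrobp, Trem1 to Trem2 and Axl to Mertk. Points are libraries, horizontal lines are means and error bars are SD. The Trem2 to Tyrobp ratio lies at or above -0.02 in every PBS library and at or below -1.15 in every LPS library.

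The genes of TREM2 and DAP12 signalling were enriched in the positive fraction, all 14 of 14 in both treatments, and did not fall with Trem2. Of all genes tested 21% were called higher than input in PBS animals and 27.6% in LPS animals. After LPS 11 of the 14 rose in the positive fraction and none fell, with a list median of 0.90 on the log2 scale against 0.01 over all genes. In that fraction 19% of all genes tested were called higher and 14.9% lower. Dok3, an adaptor that restrains such signalling, rose by 2.22 ± 0.20 (edgeR adjusted p = 1.7e-07). Rac2, a small GTPase of phagocytes, rose by 2.11 ± 0.24 (edgeR adjusted p = 2.42e-06). Btk, Grb2 and Inpp5d were not called. In input 6 of the 14 rose, where 7.16% of all genes tested were called higher. Ptpn6, the phosphatase SHP-1, rose there by 1.56 ± 0.24 and Rac2 by 1.47 ± 0.28 (edgeR adjusted p = 0.000214 and 0.00135).

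Trem1 (Gene ID 58217) lies on the same strand of chromosome 17, at 48232739 to 48246924, and its end is 99477 bases before the start of Trem2. The 250 bases before the start of each gene are shown because these neighbours moved in opposite directions. The sequences are RefSeq's on GRCm38.p6, chr17:48346151-48346400 for Trem2 and chr17:48232489-48232738 for Trem1, both on the plus strand. Capitals mark matches, on either strand, to 4 motifs searched, which were GAGGAA (the core bound by the myeloid factor PU.1), TGANTCA (AP-1), TTGCNNAA (C/EBP) and CACGTG (E-box).
Trem2: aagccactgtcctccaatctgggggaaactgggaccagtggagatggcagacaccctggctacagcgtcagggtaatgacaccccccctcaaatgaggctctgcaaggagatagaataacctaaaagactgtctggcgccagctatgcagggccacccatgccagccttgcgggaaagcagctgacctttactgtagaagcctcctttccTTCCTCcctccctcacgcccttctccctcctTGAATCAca
Trem1: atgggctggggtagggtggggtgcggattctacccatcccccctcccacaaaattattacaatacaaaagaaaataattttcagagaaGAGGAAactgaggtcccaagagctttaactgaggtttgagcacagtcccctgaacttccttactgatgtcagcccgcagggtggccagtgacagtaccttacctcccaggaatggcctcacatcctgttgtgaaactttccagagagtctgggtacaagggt
The Trem2 stretch holds a PU.1 core on the minus strand, 40 to 35 bases before the start. It also holds TGAATCA, 9 to 3 bases before the start, which matches the AP-1 pattern only as searched, with N as any base. The Trem1 stretch holds a PU.1 core, 162 to 157 bases before its start. Of the 32841 stretches of the same length searched, 23.3% held the PU.1 core, 6.75% AP-1, 9.57% C/EBP and 6.02% the E-box. These matches describe letters in the window and no binding.

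Trem1 was scarcely detected after PBS and rose strongly after LPS. Positive PBS libraries held 3.92, 4.36, 6.66 and 8.92 normalised counts, and Positive LPS libraries 278, 296, 357, 802 and 810. The 2 highest were those of animals 270 and 271. The change was 6.38 ± 0.46 on the log2 scale (edgeR adjusted p = 8.36e-09), and it rests on 3 to 7 counts in each Positive PBS library.

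In input Trem1 stood at 2.85, 5.72, 6.38 and 8.25 normalised counts after PBS and at 25.7, 28.0, 28.8 and 48.4 after LPS. This rise of 2.48 ± 0.49 (edgeR adjusted p = 0.0019) was smaller than that in the positive fraction, by 3.90 ± 0.77 (edgeR adjusted p = 0.00418). In PBS animals the positive fraction held no more Trem1 than input, with a log2 difference of 0.05 ± 0.65 (edgeR adjusted p = 0.958). In LPS animals it was enriched 15.5-fold (edgeR adjusted p = 3.99e-08).

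The Trem1 to Trem2 ratio of counts moved from between 0.000614 and 0.00113 in Positive PBS to between 0.115 and 0.366 in Positive LPS, and from between 0.0105 and 0.0212 to between 0.164 and 0.401 in input. On the log2 scale it rose by 7.98 in the positive fraction (exact two-sided permutation test, p = 0.0159, adjusted 0.0381) and by 3.89 in input (exact p = 0.0286, adjusted 0.0381). Both raw p-values are again the smallest that these group sizes can give. Since neither gene overlapped between treatments, the separation follows from the values of each gene, and the test adds no support to them. Trem2 had more counts than Trem1 in every library.

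Neutrophil markers moved with Trem1 in part. Of the 13 markers 7 passed the filter on low counts, and 3 of these (Ngp, Mmp8 and Retnlg) only through the LPS libraries. Over all 13, the summed level ranged from 674 to 1075 normalised counts in Input PBS, 895 to 1887 in Input LPS, 1863 to 2189 in Positive PBS and 1095 to 2223 in Positive LPS. Csf3r, the receptor for the neutrophil growth factor G-CSF, made up most of the sum in Positive PBS, and it fell from 1828 ± 180 to 973 ± 297 in the positive fraction (edgeR adjusted p = 0.000929). Over the other 12 markers the sum ranged from 146 to 327 in Positive PBS and from 433 to 1158 in Positive LPS, and from 472 to 868 and 773 to 1683 in Input PBS and Input LPS. These ranges did not overlap in the positive fraction and did in input. The defining marker Ly6g was at 0 in all 17 libraries, and Elane in all but 1, that of Input PBS from animal 268. Acta2, on the list of endothelial and mural markers, was at 0 in all 17 libraries too. Whether these zeros mean absent cells was not tested.

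S100a8, a calcium-binding protein abundant in neutrophils, behaved in part like Trem1. It rose by 4.73 ± 0.50 in the positive fraction and 2.00 ± 0.42 in input (edgeR adjusted p = 9.38e-07 and 0.00302), and the difference of 2.72 ± 0.65 was called (edgeR adjusted p = 0.0141). The positive fraction held less S100a8 than input in PBS animals, with a log2 difference of -2.32 ± 0.52 (edgeR adjusted p = 0.00148), and in LPS animals the difference of 0.40 ± 0.37 was not called (edgeR adjusted p = 0.362). S100a9 and Retnlg rose after LPS in the positive fraction too, by 1.90 ± 0.53 and 2.15 ± 0.63 (edgeR adjusted p = 0.00818 and 0.011). Within LPS animals both were lower in the positive fraction than in input. The log2 differences were -2.47 ± 0.44 and -2.09 ± 0.44 (edgeR adjusted p = 9.75e-05 and 0.000512), where Trem1 was higher by 3.95 ± 0.36. Of the 7 neutrophil markers tested 1 was called higher and 3 lower in that comparison, where 27.6% of all genes were called higher. Mmp8 and Ngp rose after LPS in the positive fraction by 3.22 ± 0.71 and 2.45 ± 0.74 (edgeR adjusted p = 0.00149 and 0.0131). Their means were 62.8 and 85.5 normalised counts in Positive LPS, against 67.2 and 141 in Input LPS. Of the 2 positive libraries with the most Trem1, that of animal 270 had the lowest S100a8 of the Positive LPS libraries, 167 normalised counts, and that of animal 271 the highest, 600.

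Monocyte markers went in both directions in the positive fraction and summed to between 2633 and 5647 normalised counts in Positive PBS and between 1759 and 4261 in Positive LPS. Ccr2 fell from 43.5 ± 14.9 to 8.36 ± 4.19 (edgeR adjusted p = 0.00014), and Fn1 fell by 0.79 ± 0.28 on the log2 scale (edgeR adjusted p = 0.0336). Ms4a4c rose from 28.1 ± 10.0 to 247 ± 121 (edgeR adjusted p = 1.64e-05), and Chi3l3 from 1.58 ± 2.48 to 16.7 ± 8.65 (edgeR adjusted p = 0.00406). Both risers passed the filter only through the LPS libraries. The part of blood cells in the Trem1 values was not tested.

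**Figure D4:**
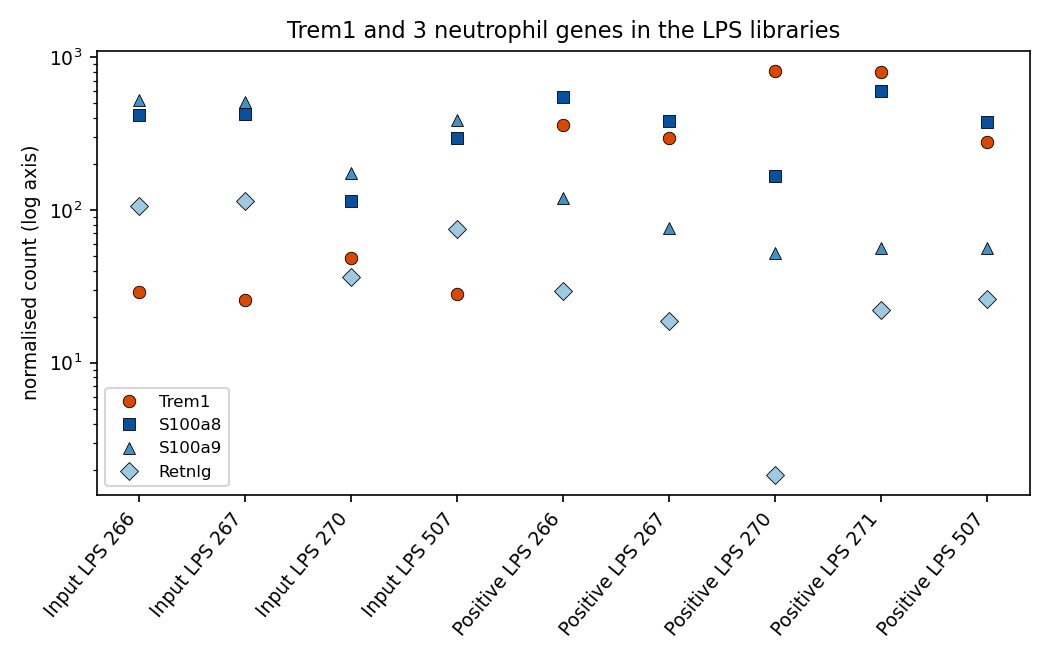
Normalised counts (y axis, log scale) of Trem1 and of the neutrophil genes S100a8, S100a9 and Retnlg in each LPS library (x axis). S100a9 lies between 174 and 519 in input and between 51.9 and 119 in the positive fraction, while Trem1 lies between 25.7 and 48.4 in input and between 278 and 810 in the positive fraction.

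Trem1 and Trem2 flank other members of the family. Trem3, next to Trem1, stood at 2.11 ± 3.08 normalised counts in Positive PBS and 50.0 ± 12.0 in Positive LPS, passed the filter only through Positive LPS, and lies outside the rule for named genes. Treml2, which lies between Trem3 and Trem2, rose by 1.48 ± 0.32 (edgeR adjusted p = 0.0014), from 225 ± 35.5 to 623 ± 374. Treml1 and Treml4 did not pass the filter on low counts. Clec5a, another receptor that uses DAP12, rose in both fractions, by 1.28 ± 0.13 in the positive one and by 1.12 ± 0.16 in input (edgeR adjusted p = 3.87e-07 and 7.13e-05).

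Among 5 genes for the release of TREM receptors from the cell surface or for a ligand of TREM1, 3 rose in the positive fraction and none fell. Of all genes tested 19% were called higher and 14.9% lower in that fraction. Rhbdf2, which brings the sheddase ADAM17 to the surface, rose by 2.15 ± 0.27 there and by 1.82 ± 0.30 in input (edgeR adjusted p = 5.28e-06 and 0.00042). Pglyrp1, a peptidoglycan-binding protein and TREM1 ligand, rose by 0.97 ± 0.27 and 1.47 ± 0.29 (edgeR adjusted p = 0.00886 and 0.002), and with animals 506 and 507 left out the former was 0.90 and not called (edgeR adjusted p = 0.059).

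Apoe (Gene ID 11816, chromosome 7, 19696244 to 19699166, minus strand) codes for the main lipid carrier of the brain, which astrocytes also make in quantity. It stood at 54234, 57960, 65868 and 75916 normalised counts in Positive PBS and at 31860, 37891, 39567, 41010 and 47950 in Positive LPS. The groups did not overlap. It fell by 0.68 ± 0.11 on the log2 scale (edgeR adjusted p = 0.000135), to 0.625 times the PBS level. In input it stood at 40742, 43645, 43682 and 52390 after PBS and at 31322, 34861, 38265 and 38916 after LPS. These values did not overlap, yet the change of -0.33 ± 0.12 was not called (edgeR adjusted p = 0.0787).

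Apoe was enriched only 1.41-fold in the positive fraction of PBS animals (edgeR adjusted p = 0.00295), and in LPS animals the log2 enrichment was 0.15 ± 0.12 (edgeR adjusted p = 0.285). With animals 506 and 507 left out the PBS enrichment was 0.38 and not called (edgeR adjusted p = 0.0612). The summed astrocyte markers are given above, and of the 8, 1 rose and 1 fell after LPS in the positive fraction. Of 9 border macrophage markers 5 fell and 1 rose there, the latter being Siglec1, a sialic acid receptor, from 195 ± 41.1 to 1132 ± 409 (edgeR adjusted p = 2.76e-06). These markers summed to between 4154 and 8313 normalised counts in Positive PBS and between 3599 and 5322 in Positive LPS. The part of these cells in the Apoe values was not tested.

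Lpl (Gene ID 16956, chromosome 8, 68880555 to 68906932), the lipase that frees fatty acids from lipoproteins, stood at 733, 1016, 1036 and 1099 normalised counts in Positive PBS and at 477, 609, 710, 755 and 771 in Positive LPS. The groups overlapped through 1 PBS library, that of animal 268. Lpl fell by 0.55 ± 0.16 (edgeR adjusted p = 0.0107), and with animals 506 and 507 left out the change was -0.45 and not called (edgeR adjusted p = 0.0754). In input it stood at 625, 708, 730 and 890 after PBS and at 493, 527, 644 and 745 after LPS, and the change was -0.29 ± 0.17 (edgeR adjusted p = 0.272). Its log2 enrichment in PBS animals was 0.40 ± 0.17 and not called (edgeR adjusted p = 0.0632). With the animal as a replicate block the same enrichment was 0.39 and was called (edgeR adjusted p = 0.00965).

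Partners of Apoe and Lpl moved in both directions. Of 21 tested, 6 rose and 2 fell in the positive fraction, and the list median was -0.02 on the log2 scale. Over all genes tested 19% were called higher and 14.9% lower in that fraction. Apoc2, the cofactor of lipoprotein lipase, lies in the gene cluster of Apoe and rose by 4.78 ± 0.33 (edgeR adjusted p = 4.96e-09), from 6.75 ± 2.81 to 184 ± 23.8 normalised counts, and passed the filter only through Positive LPS. Among the 20 partners that passed it through PBS libraries too, 5 rose and 2 fell. Plin2, the coat protein of lipid droplets, rose in both fractions, by 2.89 ± 0.10 and by 1.06 ± 0.10 (edgeR adjusted p = 7.47e-13 and 5.77e-07). Pltp, a phospholipid transfer protein of lipoproteins, fell by 2.33 ± 0.08 and 1.03 ± 0.09 (edgeR adjusted p = 1.11e-12 and 2.38e-07). Vldlr, a receptor for apolipoprotein E, fell by 0.47 ± 0.09 in the positive fraction (edgeR adjusted p = 0.00056). Angptl4, an inhibitor of lipoprotein lipase, rose by 2.50 ± 0.28 in input (edgeR adjusted p = 7.03e-06).

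Cst7 (Gene ID 13011, chromosome 2, 150570415 to 150578944) codes for cystatin F, an inhibitor of lysosomal cysteine proteases. Positive PBS libraries held 73.3, 84.9, 86.2 and 86.6 normalised counts, and Positive LPS libraries 368, 574, 603, 626 and 676. The lowest Positive LPS library, of animal 270, was far above the highest Positive PBS library. Cst7 rose 6.88-fold (2.78 ± 0.24 on the log2 scale, edgeR adjusted p = 7e-08). In input it stood at 1.82, 3.81, 5.70 and 11.4 after PBS and at 17.2, 23.9, 31.7 and 32.3 after LPS, and rose by 2.22 ± 0.36 (edgeR adjusted p = 0.000353). Its enrichment in the positive fraction was 14.6-fold in PBS animals and 21.5-fold in LPS animals (edgeR adjusted p = 2.96e-08 and 1.01e-10).

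Of 3 proteases examined as targets of cystatin F, cathepsin C and cathepsin H rose and legumain was not called. Among all genes tested 19% were called higher in the positive fraction and 7.16% in input. Ctsc rose by 1.86 ± 0.20 in the positive fraction and 1.51 ± 0.22 in input (edgeR adjusted p = 9.5e-07 and 9.5e-05). Ctsh rose by 0.59 ± 0.14 and 0.57 ± 0.16 (edgeR adjusted p = 0.00242 and 0.0188). The Ctsh call in input was lost with the animal as a replicate block (limma voom, 0.54, adjusted p = 0.16) and without any 1 of 3 input libraries, of animals 268, 506 and 507 (0.51 to 0.54, edgeR adjusted p = 0.0537 to 0.0579), or without animals 506 and 507 in both fractions (0.48, edgeR adjusted p = 0.118).

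Itgax (Gene ID 16411, chromosome 7, 128129568 to 128150657), the integrin chain CD11c, was enriched and did not change by call. It ranged from 125 to 186 normalised counts in Positive PBS and from 111 to 192 in Positive LPS, so that the LPS range enclosed the PBS range. The log2 change was -0.16 ± 0.25 in the positive fraction (95% interval -0.70 to 0.38, edgeR adjusted p = 0.643). In input it ranged from 7.39 to 21.9 over both treatments, and the change was -0.16 ± 0.35 (edgeR adjusted p = 0.812). The enrichment was 10.7-fold in both PBS and LPS animals (edgeR adjusted p = 6.43e-08 and 2.98e-08).

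Spp1 (Gene ID 20750, chromosome 5, 104435111 to 104441053) codes for osteopontin, a secreted ligand of integrins and of CD44. It stood at 748, 758, 981 and 1482 normalised counts in Positive PBS and at 1748, 1883, 1961, 2240 and 2257 in Positive LPS. In input it stood at 802, 947, 1129 and 1939 after PBS and at 2080, 2721, 2896 and 3202 after LPS. The LPS libraries were above the PBS libraries in both fractions, and the highest PBS value came from animal 272 each time. The rise was 1.02 ± 0.23 in the positive fraction and 1.18 ± 0.24 in input, as log2 (edgeR adjusted p = 0.0018 and 0.0024).

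Spp1 was not enriched in the positive fraction. The log2 difference from input was -0.28 ± 0.24 in PBS animals and -0.43 ± 0.22 in LPS animals (edgeR adjusted p = 0.363 and 0.101). With the animal as a replicate block the LPS value was -0.46 and was called as lower in the positive fraction (edgeR adjusted p = 0.00267). Of its receptors and the integrin partners of Itgax, 5 of 10 rose and 1 fell in the positive fraction. In that fraction 19% of all genes tested were called higher and 14.9% lower after LPS. Itga5, a fibronectin receptor chain, rose by 2.65 ± 0.15 and Cd44 by 2.07 ± 0.24 (edgeR adjusted p = 4.48e-10 and 2.52e-06). Itgb5 fell by 0.75 ± 0.16 (edgeR adjusted p = 0.0014). In input 4 of the 10 rose, where 7.16% of all genes tested were called higher. Itgam, the CD11b chain, rose there by 1.20 ± 0.22 and Cd44 by 1.17 ± 0.25 (edgeR adjusted p = 0.00104 and 0.00302).

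Axl (Gene ID 26362, chromosome 7, 25756500 to 25788733, minus strand), a receptor tyrosine kinase that binds apoptotic cells through the bridging protein GAS6, differed little in level between the 4 groups. Over the 17 libraries it lay between 1629 and 2022 normalised counts. The LPS effect was -0.05 ± 0.07 in the positive fraction (95% interval -0.20 to 0.10) and 0.07 ± 0.07 in input (95% interval -0.08 to 0.23), with edgeR adjusted p of 0.596 and 0.544. The log2 difference between positive fraction and input was -0.01 ± 0.07 in PBS and -0.14 ± 0.07 in LPS animals (edgeR adjusted p = 0.892 and 0.0918).

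Of 4 other TAM receptors and ligands, 2 fell and none rose in the positive fraction, and 1 rose and 1 fell in input. Mertk was enriched by 1.58 ± 0.12 and 1.45 ± 0.12 on the log2 scale (edgeR adjusted p = 4.33e-09 and 5.55e-09) and changed by -0.32 ± 0.11 in the positive fraction, just short of the fold threshold. Gas6 fell there by 0.81 ± 0.10 (edgeR adjusted p = 5.67e-06). Tyro3 fell by 0.71 ± 0.09 in both fractions (edgeR adjusted p = 4.93e-06 and 3.23e-05). Pros1, the second bridging ligand, rose by 1.04 ± 0.17 in input (edgeR adjusted p = 0.000331). The Axl to Mertk ratio of counts was between 0.379 and 0.462 in Positive PBS and between 0.459 and 0.557 in Positive LPS. The ranges overlapped narrowly, and the ratio rose by 0.27 on the log2 scale (exact two-sided permutation test, p = 0.0317, adjusted 0.0381). In input it differed by 0.25 (exact p = 0.314).

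Gpnmb (Gene ID 93695, chromosome 6, 49036518 to 49058182), a lysosome-linked membrane protein, rose in both fractions. It stood at 74.2, 84.9, 98.0 and 116 normalised counts in Positive PBS and at 122, 134, 141, 198 and 207 in Positive LPS. In input it stood at 84.5, 84.6, 101 and 103 after PBS and at 121, 154, 168 and 204 after LPS. The groups were adjacent and did not overlap. The rise was 0.78 ± 0.20 in the positive fraction and 0.79 ± 0.21 in input (edgeR adjusted p = 0.00449 and 0.0142). The input call was lost without the Input LPS library of animal 266 (0.66, edgeR adjusted p = 0.0595) and with animals 506 and 507 left out (0.82, edgeR adjusted p = 0.0659). Positive fraction and input differed by 0.00 ± 0.21 and -0.01 ± 0.19 in PBS and LPS animals. Of 5 genes of the MITF family, which drives Gpnmb, and its binding partner syndecan-4, 2 rose and 1 fell in the positive fraction. Among all genes tested 19% were called higher and 14.9% lower in that fraction. There Sdc4 rose by 1.57 ± 0.17 and Tfe3 by 0.37 ± 0.07 (edgeR adjusted p = 9.8e-07 and 0.000342). Mitf itself fell by 0.46 ± 0.12 (edgeR adjusted p = 0.00397). In input Sdc4 rose by 0.64 ± 0.17 (edgeR adjusted p = 0.0157).

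**Figure D5:**
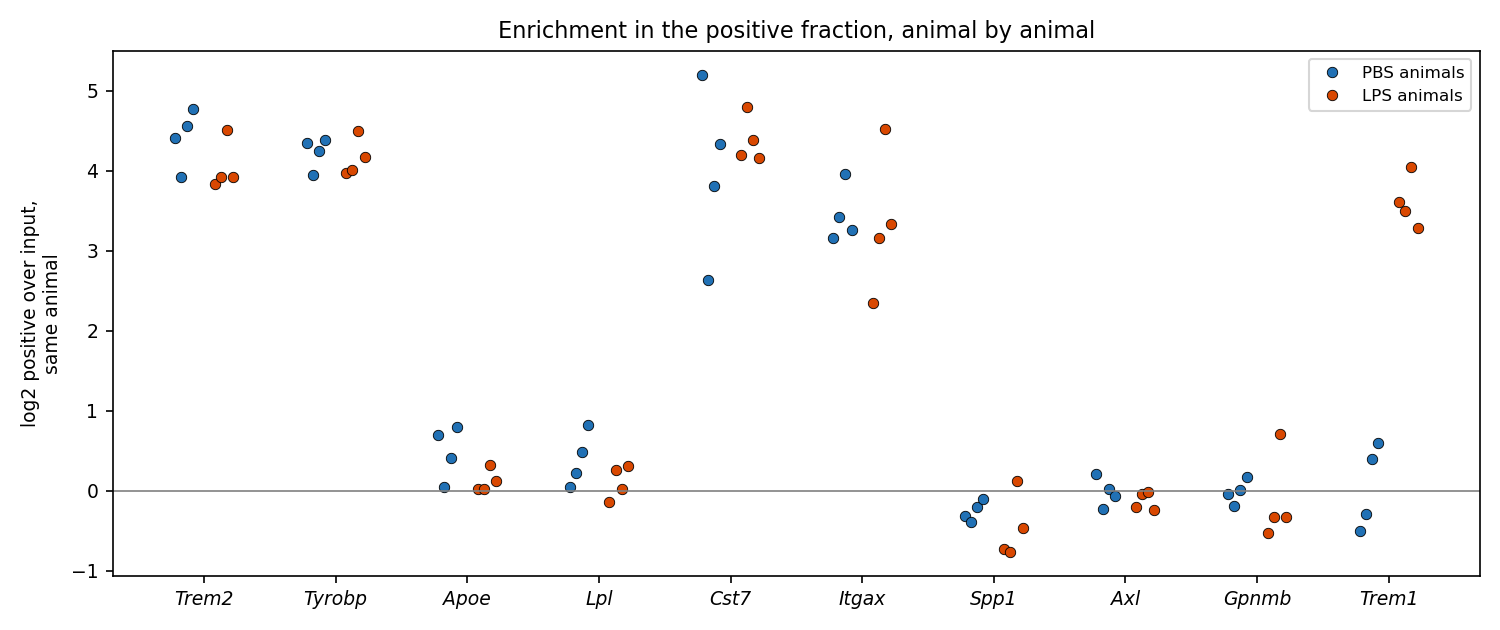
Log2 ratio of positive fraction to input within each animal (y axis, 0.5 added to each normalised count) for the 10 genes (x axis), in 4 PBS and 4 LPS animals. Points are animals. Trem1 lies between -0.50 and 0.60 in PBS animals and between 3.29 and 4.05 in LPS animals, while the means of Spp1, Axl and Gpnmb lie between -0.46 and -0.01 in both treatments.

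Per kb of the main transcript in GENCODE M21, the order of mean levels in Positive PBS was Apoe at 45096 normalised counts per kb, Tyrobp at 10968, Trem2 at 6874, Spp1 at 658, Axl at 414, Lpl at 236, Cst7 at 83.9, Itgax at 40.8, Gpnmb at 25.2 and Trem1 at 1.99. The libraries of neighbouring genes in this order did not overlap, except those of Itgax (from 31.0) and Gpnmb (up to 31.3). In Positive LPS Spp1 stood at 1339 per kb, Cst7 at 578, Axl at 400, Trem1 at 170, Lpl at 161, Gpnmb at 43.3 and Itgax at 36.5. There Cst7 (from 373) and Axl (up to 411) overlapped, as did Trem1 and Lpl, and Gpnmb and Itgax. Trem2 (from 959 to 3041) and Spp1 (from 1160 to 1498) overlapped too. Trem2 was at 2093 per kb against 12880 for Tyrobp.

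The wider disease-associated set did not move as a block. Of 34 other genes of that set, 14 rose, 10 fell and 10 were not called in the positive fraction. Their median was 0.13 on the log2 scale, and 19% of all genes tested were called higher and 14.9% lower there. The NADPH oxidase chain Cybb rose by 4.00 ± 0.50 and the inhibitory receptor Lilrb4 by 4.42 ± 0.15 (edgeR adjusted p = 6.15e-06 and 7.47e-13). Clec7a, the beta-glucan receptor Dectin-1, fell by 1.55 ± 0.37, and the chemokine Ccl6 by 0.95 ± 0.17 (edgeR adjusted p = 0.00263 and 0.000259). In PBS animals 21 of the 34 were enriched over input, 4 were lower and 9 were not called. In that comparison 21% of all genes tested were called higher and 39.8% in either direction. Of the fallers, Cadm1, Fam20c and Hpse were not called there and Mamdc2 was lower. Of the risers, Ch25h and Hif1a were not called there and Csf1 and Fth1 were lower. The part of other cells in these changes was not tested. In input 11 of the 34 rose and none fell, where 7.16% of all genes tested were called higher and 5.26% lower. Cybb rose there by 2.85 ± 0.54 (edgeR adjusted p = 0.00132), and by 2.57 with the animal as a replicate block (limma voom, adjusted p = 0.0513). The cholesterol hydroxylase Ch25h rose by 2.38 ± 0.40 (edgeR adjusted p = 0.000446).

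The homeostatic genes of microglia fell, as did Trem2. Of 17 such genes 14 fell and none rose in the positive fraction, where 14.9% of all genes tested were called lower. Their median there was -1.34 on the log2 scale against 0.01 over all genes. In input 9 fell and none rose, with a median of -0.61, where 5.26% of all genes tested were called lower. The fructose transporter Slc2a5 fell by 4.93 ± 0.33 and by 2.49 ± 0.38 (edgeR adjusted p = 2.71e-09 and 0.000173). The receptor Gpr34 fell by 3.47 ± 0.33 and by 2.91 ± 0.43 (edgeR adjusted p = 3.01e-07 and 0.000118). Csf1r and Cx3cr1, the latter of which drives the Cre, were not called, with changes of -0.16 ± 0.10 and -0.20 ± 0.19 in the positive fraction (edgeR adjusted p = 0.221 and 0.411).

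The genes most like Trem2 over the 17 libraries, by Pearson's r of log2(normalised count + 1), were Selplg (r = 0.9955), Fcrls (r = 0.9923) and P2ry13 (r = 0.9895). Those most like Trem1 were Cd300lf, Twf1 and Zc3h12a (r = 0.972, 0.972 and 0.971), and those most like Apoe were Cd209b, Ckb and Ssbp3 (r = 0.935, 0.928 and 0.926). These are descriptions over libraries that share fraction and treatment, and 105 genes had an r over 0.95 with Trem2, 26 with Trem1 and none with Apoe.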

How the data were processed

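Per the study's methods, the authors aligned the reads with strand to mm10 in Strand NGS and normalised by the DESeq algorithm, which the submitters' processing notes also name. The deposited estimated counts per gene were used for all tests, rounded to whole numbers since 81.6% of nonzero values were not whole. The deposited log2 values served as an alternative only. Each library was divided by its median ratio to the mean library on the log scale (15766 genes, factors 0.766 to 1.32). Genes with over 20 normalised counts in every library of at least 1 group were kept. A quasi-likelihood model of the 4 groups was fitted in edgeR 4.0.16 (R 4.3.3, 13 residual degrees of freedom) and tested on simulated data. DESeq2 1.42.0, limma 3.58.1, TMM, other filters and covariates, and left-out libraries were alternatives. SE is the fold change over the root of the F statistic, and 95% intervals take 13 degrees of freedom. Fractions pair by animal number in the labels. The main fit treated the input and positive libraries of an animal as independent. Its p-values for enrichment and for the difference between fractions therefore ignore this pairing. Deviations of paired libraries from their group means correlated at 0.16 to 0.52. Ratios used counts plus 0.5, with exact permutation tests in SciPy 1.17.1.

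The 10 genes and all lists were chosen with earlier results of these data known. Named besides the 10 were, per list, up to 2 called genes rising and 2 falling most in each fraction averaging 100 or more normalised counts, and the 3 genes most like Trem2, Apoe and Trem1. At 3 counts, taken as the floor, a gene holds between 8.54e-06% and 1.31e-05% of a library, for counting error only. Animals differ between treatments, and p-values measure the spread between these libraries. A gene on the microglia lists is not reported here.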

Additional observations from a re-analysis of the deposited data

Results flagged for a closer look

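The LPS effect on Trem1 differed between fractions, by 3.90 on the log2 scale in a test of the difference itself (edgeR adjusted p = 0.00418). Trem1 was higher in the positive fraction than in input in all 4 LPS animals with both libraries. In PBS animals the log2 ratio of the fractions ranged from -0.50 to 0.60, on 3 to 8 counts per library, and no enrichment was called.

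Single libraries stood far from the others of their group in 3 of 40 groups of values examined by Dixon's test at its 95% limit, where chance alone flags about 1 in 20. Trem2 in Input PBS was high in animal 272, at 475 normalised counts. Cst7 in Positive PBS was low in the same animal, at 73.3. Trem1 in Input LPS was high in animal 270, at 48.4.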

How the results depend on the processing

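The counts of the 10 genes called stayed within 1.5 times under every alternative run, at 6 to 7 for LPS in the positive fraction, 4 to 7 in input, 4 to 6 and 5 to 6 for enrichment in PBS and LPS animals, and 1 for the difference. Of 1440 single values of these genes, 1359 kept direction and side of the threshold, 5 lost a call, 20 gained one and 56 changed sign, and none of the values that changed sign was called.

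With the animal as a replicate block the difference between fractions was called for 1915 of all genes in place of 1018, and besides the changes given above it altered no call of the 10 genes. With animals 506 and 507 left out 1074 genes were called for LPS in input (in place of 1839) and 334 for the difference. The exact ratio tests then could not reach an adjusted p under 0.05, with log2 changes of -1.99 and -1.87 for the Trem2 to Tyrobp ratio in the positive fraction and input, 8.35 and 4.13 for Trem1 to Trem2, and 0.21 for Axl to Mertk in the positive fraction. Without 1 library the ratios ranged from -2.18 to -1.815 and from -1.96 to -1.52 for Trem2 to Tyrobp, from 7.79 to 8.21 and from 3.65 to 4.09 for Trem1 to Trem2, and from 0.22 to 0.32 for Axl to Mertk in the positive fraction. With 1 of the 8 input libraries left out, both Trem2 to Tyrobp and Trem1 to Trem2 passed an adjusted p of 0.05 in none of 8 settings, since the smallest exact p rises. In the positive fraction they missed it in 3 of 9 and Axl to Mertk in 7 of 9.

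Sign changes were of small values that were never called. The Itgax difference between fractions was -0.0011 with DESeq2, -0.014 with limma, -0.0841 with animals 506 and 507 left out, -0.0159 with sex and -0.0053 with the number series as a covariate, -0.1303 with the block, and -0.2079 to 0.3056 without 1 library. That of Gpnmb was 0.0056 with TMM, 0.0018 with 18 libraries, 0.1392 with animals 506 and 507 left out, 0.0012 with the number series, 0.0158 on the deposited log2 values and -0.1264 to 0.1202 without 1 library. The Gpnmb enrichment in LPS animals was 0.0024 with TMM, 0.0654 with both animals left out and -0.1309 to 0.1161 without 1 library, and in PBS animals -0.1242 to 0.0938 without 1 library. The LPS effect on Axl in the positive fraction was 5e-04 with 18 libraries, 0.0038 on the deposited values and -0.0853 to 0.0109 without 1 library, and its PBS enrichment 0.0052 with both animals left out and -0.073 to 0.0231 without 1 library. The Trem1 enrichment in PBS animals was -0.0769 with 18 libraries, -0.1799 with both animals left out, -0.0439 on the deposited values and -0.175 to 0.25 without 1 library. The LPS effect on Itgax in input was 0.0763 with both animals left out and -0.4633 to 0.0502 without 1 library. For Spp1 without 1 library the PBS enrichment was -0.5387 to 0.0508 and the difference -0.4835 to 0.1059. The causes were not tested. Counts near 5 per library limit the Trem1 enrichment in PBS animals.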
